A study of Homo sapiens with 6 samples.

Results

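The genes examined here are 10 transcription factors known for their part in epithelial–mesenchymal transition (EMT): *ZEB1*, *ZEB2*, *SNAI1*, *SNAI2*, *SNAI3*, *TWIST1*, *TWIST2*, *PRRX1*, *FOXC2* and *OVOL1*. They were chosen by gene symbol, and all 10 were found among the 20347 symbols of the expression table. Their transcripts were counted by RNA-seq in cells of PaTu8988t, an established human pancreatic ductal adenocarcinoma (PDAC) cell line, in 3 control libraries and 3 SAMD1 KO libraries. The control cells carried a CRISPR/Cas9 construct with an unspecific guide RNA. The KO cells carried guides against *SAMD1*, and each KO library came from a clonally independent line, so that each one is a single clone grown out under puromycin. The sources used here do not say whether the 3 control replicates were separate clones, and p-values therefore set a spread between clones beside a spread between control samples that may be technical.

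SAMD1 is a repressor that binds unmethylated CpG islands and works with the histone demethylase KDM1A. During EMT, epithelial cells give up their junctions and gain mobility, and a small set of DNA-binding factors carries out much of this switch. The ZEB factors (zinc-finger homeodomain proteins) and the SNAI factors (zinc-finger proteins) bind the same E-box letters and silence epithelial genes such as *CDH1*, which encodes E-cadherin. TWIST factors are basic helix-loop-helix (bHLH) proteins, PRRX1 is a homeodomain protein and FOXC2 a forkhead protein, and all of them are known for promoting a mesenchymal state. OVOL1 works the other way, as a zinc-finger repressor that holds cells epithelial and is known to repress *ZEB1*, so the 10 genes do not share 1 direction of action.

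The *SAMD1* transcript itself was at 40.2% of its control level in the KO libraries, lower in each of them, with 884 to 1252 reads left. The libraries held 35589477 to 45172216 reads, and the spread between control replicates was 2.66 to 5.22 times counting noise (mean squared difference per gene), against 50.4 to 58.1 times between clones. The cell line label was checked against marker genes. Among markers of ductal or PDAC epithelium, *KRT19*, *CEACAM6* and *TFF1* were at 0 reads in all libraries. Of these markers 8 were tested, and 4 of those (*KRT7*, *KRT18*, *SOX9* and *GATA6*) were called higher in KO cells by the rule given below for all genes. Of all tested genes, 5.77% were called higher. Their summed level was 63670 to 66880 normalized counts in control and 69070 to 110700 in KO libraries, most of it *KRT8* and *KRT18*, and the calls of *KRT18* and *SOX9* were lost without any 1 of the control replicates, with log2 fold changes of 0.39 to 0.70 and 0.85 to 1.47 when a library was left out. Fibroblast markers *DCN*, *LUM* and *FAP* were also at 0 reads, and the summed level of the 10 fibroblast markers was 575.3 to 586.8 in control and 492.9 to 826.8 in KO cells. Of the 4 tested, 1 was called higher, *PDGFRA*, against 5.77% of all tested genes. *PDGFRA* had 3 to 4 reads in control libraries and 17 to 24 in the clones, so that it reached the minimum mean given below only through the KO libraries. The other 3 did not pass the rule, with log2 fold changes of 1.13 for *COL3A1* (called by edgeR and DESeq2), −1.04 for *COL1A1* and −0.25 for *ACTA2*. The 6 immune cell markers summed to at most 382.6 normalized counts in any library, and the 5 endothelial markers to at most 89.4. Of the 4 tested genes of both lists, limma and edgeR called 0 and DESeq2 called 1, *CDH5*. An unadjusted limma p below 0.05 was found for 2 of the 4, and for 29.6% of all tested genes. The part of these markers in the results below was not tested.

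Of the 10 factors, 5 were expressed highly enough to be compared, with a mean of at least 10 normalized counts over the 6 libraries. Normalized counts are reads after division by the size factor of their library. Groups were compared with limma on log2(normalized count + 1). To be called, a gene had to differ by more than 0.5 on this scale with p below 0.01 before adjustment. By this rule, 1 of the 5 factors was called, *ZEB1*, against 7.85% of all 12773 tested genes (5.77% higher and 2.08% lower). With an adjusted p below 0.05 in its place, *ZEB1* was again the 1 factor called, against 7.21% of all genes (5.34% higher and 1.87% lower). The median log2 fold change of the 5 was −0.13, beside −0.006 over all tested genes. The plot of normalized counts by library shows a single abundant factor, 4 at low levels and 5 at or near 0.

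**Figure D1:**
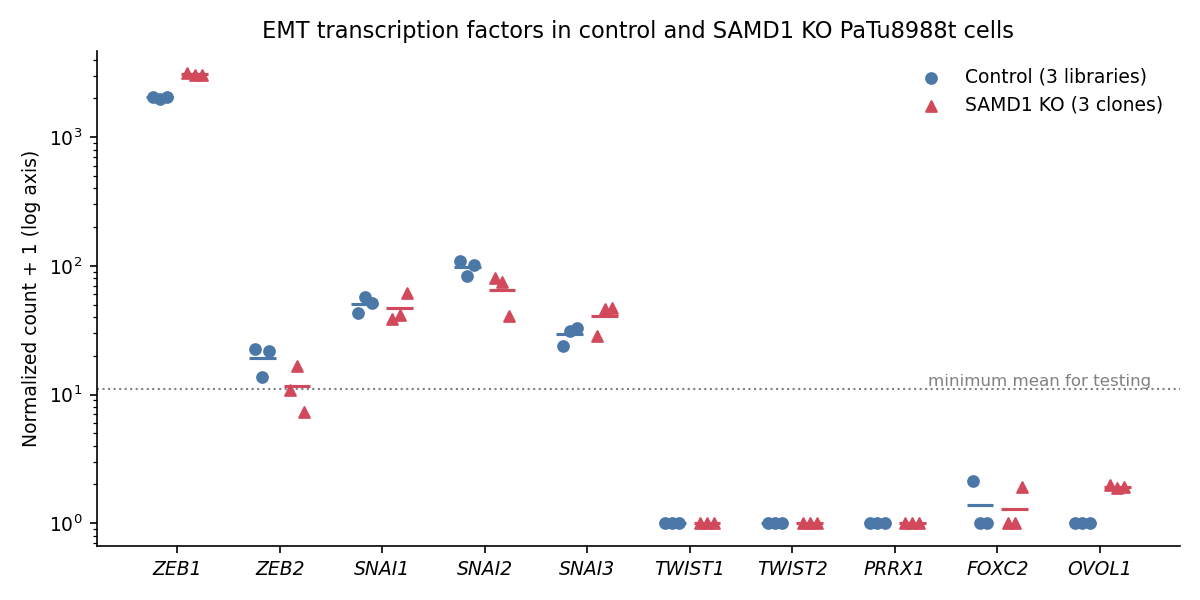
Normalized count + 1 (log axis) of each EMT transcription factor in the 3 control libraries (circles) and the 3 SAMD1 KO clones (triangles), with the mean of each group as a line. *ZEB1* lies between 1982 and 2063 in control and between 3023 and 3138 in KO cells, and every other factor lies at or below 107.5.

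Since SAMD1 acts at CpG-rich promoters, the promoters of the factors are shown first. Windows from 250 bases before to 50 after the annotated start were given by RefSeq (GRCh38.p14) for 4 of the 10 factors, *ZEB1*, *ZEB2*, *TWIST2* and *PRRX1*. *SNAI1*, *SNAI2*, *SNAI3*, *TWIST1*, *FOXC2* and *OVOL1* had no entry in the table. One window per gene is printed, at the start of the main (MANE Select) transcript. The set pairs the abundant factor with its low paralog and with 2 factors that had no reads. Capitals mark each CpG.
ZEB1 promoter, chr10:31318966-31319265, plus strand: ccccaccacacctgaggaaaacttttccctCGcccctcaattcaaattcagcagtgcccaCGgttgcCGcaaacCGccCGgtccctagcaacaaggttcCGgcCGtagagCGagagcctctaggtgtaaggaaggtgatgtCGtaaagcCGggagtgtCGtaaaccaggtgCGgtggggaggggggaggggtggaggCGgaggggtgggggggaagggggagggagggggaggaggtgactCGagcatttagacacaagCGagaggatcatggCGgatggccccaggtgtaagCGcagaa
ZEB2 promoter, chr2:144520070-144520369, minus strand: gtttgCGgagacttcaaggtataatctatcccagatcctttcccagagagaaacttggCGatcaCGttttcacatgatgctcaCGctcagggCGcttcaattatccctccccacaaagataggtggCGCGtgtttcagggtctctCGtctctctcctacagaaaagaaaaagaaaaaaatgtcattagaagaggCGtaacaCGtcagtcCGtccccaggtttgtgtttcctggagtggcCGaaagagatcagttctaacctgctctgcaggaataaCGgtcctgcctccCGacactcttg
TWIST2 promoter, chr2:238847835-238848134, plus strand: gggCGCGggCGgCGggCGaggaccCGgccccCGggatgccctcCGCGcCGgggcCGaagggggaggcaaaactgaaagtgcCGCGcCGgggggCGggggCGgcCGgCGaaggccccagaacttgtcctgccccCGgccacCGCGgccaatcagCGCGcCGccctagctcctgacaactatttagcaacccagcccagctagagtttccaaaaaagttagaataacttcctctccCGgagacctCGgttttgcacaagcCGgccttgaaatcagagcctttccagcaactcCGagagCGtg
PRRX1 promoter, chr1:170663881-170664180, plus strand: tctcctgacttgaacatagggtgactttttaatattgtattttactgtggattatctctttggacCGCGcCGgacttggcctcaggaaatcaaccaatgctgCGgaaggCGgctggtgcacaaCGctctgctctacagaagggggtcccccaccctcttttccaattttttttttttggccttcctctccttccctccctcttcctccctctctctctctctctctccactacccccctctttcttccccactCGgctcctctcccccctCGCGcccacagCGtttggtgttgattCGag

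These 300-base windows held 17 CpG in *ZEB1*, 14 in *ZEB2*, 29 in *TWIST2* and 11 in *PRRX1*, where the median over all 35116 windows was 14 and the upper quartile 28. The most CpG-rich of the 4 therefore belonged to a gene without a read. *ZEB1* has 7 annotated starts in the table, at −799 to 2444 bases from the main one, and their windows held between 7 and 35 CpG. The 35 lay in the window of the start 552 bases downstream. Deposited values are per gene, so that these starts cannot be told apart in the counts.

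The letters GCGC, which read the same on both strands, occurred 1 time in the main *ZEB1* window, 2 times in *ZEB2*, 5 times in *TWIST2* and 2 times in *PRRX1*, and 57.2% of all windows hold them. The E-box letters CACCTG (searched on both strands, as CACCTG or CAGGTG) occurred 3 times in the main *ZEB1* window and were absent from the other 3 printed windows. In all, 20.6% of windows hold them. Binding of SAMD1 was not analysed here, and these matches describe letters and not bound sites.

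*ZEB1* rose in SAMD1 KO cells. This gene (GRCh38 chromosome 10, 31318495 to 31529814, plus strand) had 2059, 1982 and 2063 normalized counts in control replicates 1 to 3, while KO clones 1 to 3 had 3138, 3023 and 3056. The lowest clone lay far above the highest control replicate, and the gap between the groups was several times the spread within either. In bulk RNA, a larger share of cells with the transcript and more transcript per cell cannot be told apart. The means were 2035 ± 45.5 and 3072 ± 58.9 (SD, n = 3 each), a ratio of 1.51 and a log2 fold change of 0.59 (standard error 0.051, 95% confidence interval 0.48 to 0.71, limma adjusted p = 0.000895). The value lies just past the limit of 0.5. With each library left out in turn it ran from 0.58 to 0.61, with adjusted p-values between 0.00137 and 0.0124, and *ZEB1* was called every time. An exact permutation test (two-sided) gave p = 0.1, the smallest that 3 against 3 libraries allow.

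The genes closest to *ZEB1* were not called. *ZNF438*, the nearest tested gene on one side, had a log2 fold change of 0.20 (adjusted p = 0.274), and *ARHGAP12* on the other side had −0.03 (adjusted p = 0.74). Over the 40 tested neighbours, which start between −7.11 and 12.09 Mb from *ZEB1*, the median log2 difference to control was 0.009 in clone 1, −0.040 in clone 2 and −0.015 in clone 3. Against 7.85% of all tested genes, 5 of the 40 neighbours were called, *MKX*, *JCAD* and *NRP1* higher (log2 fold changes 0.78, 0.73 and 0.61) and *PRTFDC1* and *MPP7* lower (−0.57 and −0.65). Their limma adjusted p-values were 0.0561, 0.0375, 0.0607, 0.00349 and 0.0508 in this order, so that only *JCAD* and *PRTFDC1* were below 0.05. With the median of the neighbours removed from each clone, the log2 fold change of *ZEB1* was 0.61. On the opposite strand *ZEB1-AS1*, a long noncoding RNA, overlaps the gene span of *ZEB1* (introns included) by 1953 bases. The strand setting of the counting was not given in the sources used here. Reads of the pair from any exons shared in this stretch therefore cannot be told apart, and exon overlap was not measured.

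**Figure D2:**
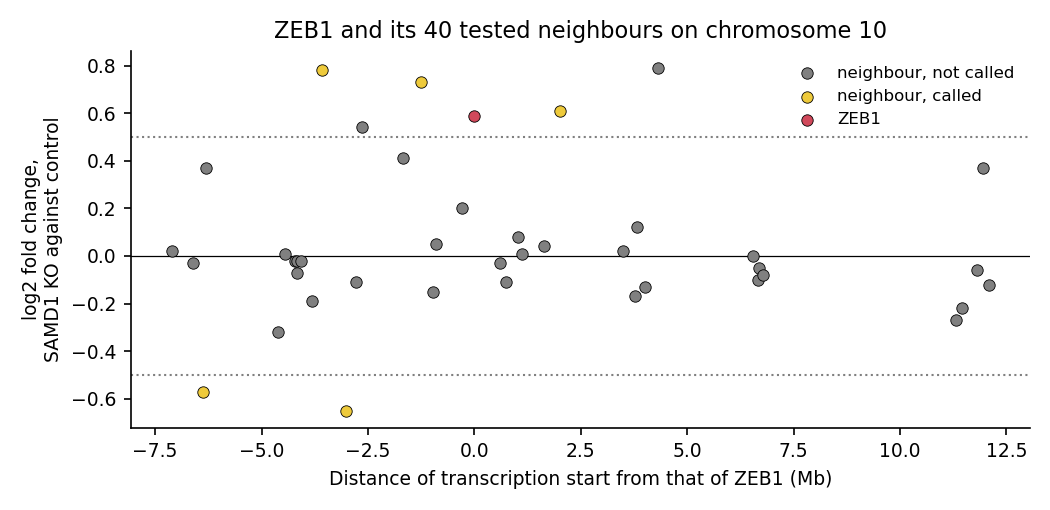
log2 fold change (SAMD1 KO against control) of *ZEB1* and its 40 tested neighbours on chromosome 10, by distance of their start from that of *ZEB1* in Mb, with dotted lines at −0.5 and 0.5. *ZEB1* sits at 0.59 between neighbours at 0.20 and −0.03, and 5 of the 40 neighbours were called (7.85% of all tested genes were).

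The tested genes whose log2 values over the 6 libraries followed *ZEB1* most closely were *MFAP3L* (Pearson r = 0.999), *TTL* (0.999) and *SPHK1* (0.998). Their own log2 fold changes were 0.78, 0.29 and 1.65. All 6 points fall into 2 groups of 3, and 491 genes had an r above 0.95 with *ZEB1*.

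*ZEB2*, the paralog of *ZEB1* (chromosome 2, 144364364 to 144521057, minus strand), was scarce. Its normalized counts were 21.7, 12.7 and 20.6 in control libraries against 9.9, 15.6 and 6.3 in clones 1 to 3, from 7 to 19 reads per library. Clone 2 lay above control replicate 2, so that the groups overlapped. The log2 fold change was −0.79 (standard error 0.40, 95% confidence interval −1.72 to 0.15, limma adjusted p = 0.237). A fall to well under the control level and no change are both within this interval. Without clone 2 the value was −1.08 and without clone 3 it was −0.49, and neither was called. The gene span of *ZEB2* (introns included) is overlapped by *ZEB2-AS1* on the opposite strand over 3080 bases. An unnamed long noncoding RNA on that strand overlaps it over 5603 bases, and an unnamed gene on the strand of *ZEB2* over 2614 bases. Exon overlap was not measured here either.

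*SNAI2*, also called SLUG, is the SNAI factor known for its role in neural crest migration. Control replicates 1 to 3 had 107.5, 82.2 and 100.8 normalized counts of it, against 79.1, 74.3 and 39.6 in clones 1 to 3. All 3 clones lay below all control replicates, by a narrow margin for clones 1 and 2. Among all tested genes, 37.8% had groups that did not overlap, and of the 5 factors these were *ZEB1* and *SNAI2*. The log2 fold change of *SNAI2* was −0.64 (standard error 0.28, 95% confidence interval −1.30 to 0.03, limma adjusted p = 0.185), which did not pass the rule. The size rested on clone 3: without it the log2 fold change was −0.32, and without clone 1 it was −0.81.

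*SNAI1*, or Snail (chromosome 20, 49982980 to 49988886, plus strand), had 42.3, 56.7 and 50.4 normalized counts in control libraries, against 37.6, 40.6 and 60.3 in the clones. The clones spanned the whole control range, clone 3 above it and clones 1 and 2 below it. Its log2 fold change was −0.13 (standard error 0.24, 95% confidence interval −0.70 to 0.44, limma adjusted p = 0.761).

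*SNAI3*, a paralog of both (chromosome 16, 88677688 to 88686507, minus strand), had 22.9, 30.3 and 32.1 normalized counts in control libraries, against 27.7, 44.9 and 45.9 in the clones. Clones 2 and 3 lay above all control replicates and clone 1 within them. The log2 fold change was 0.44 (standard error 0.28, 95% confidence interval −0.21 to 1.09, limma adjusted p = 0.329), and without clone 1 it was 0.67, with an adjusted p of 0.0951. The whole gene span of *SNAI3* (8820 bases, introns included) is overlapped by *SNAI3-AS1* on the opposite strand. Overlap of exons was not measured, so that it is not known whether reads of that RNA enter the low count of *SNAI3*.

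**Figure D3:**
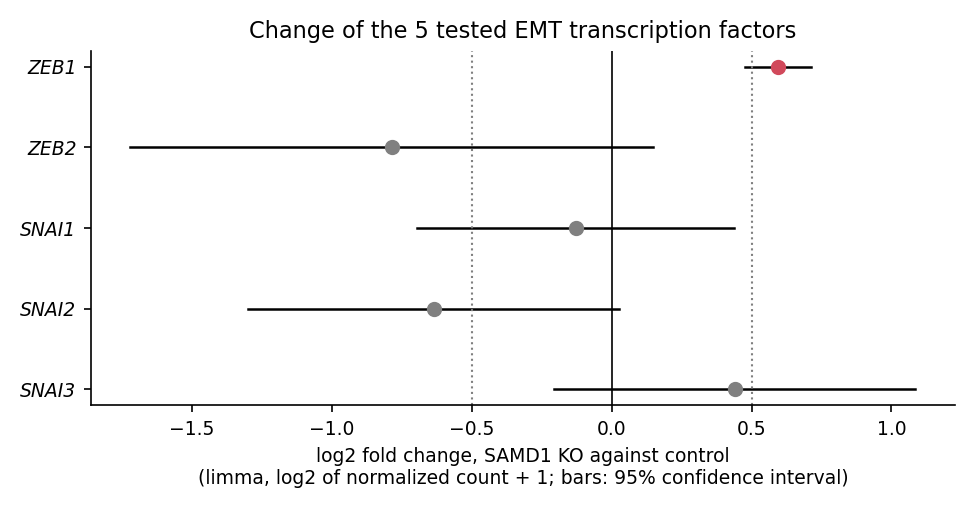
log2 fold change (SAMD1 KO against control, x axis) of the 5 tested EMT transcription factors with 95% confidence intervals from limma, and dotted lines at −0.5 and 0.5. The interval of *ZEB1* runs from 0.48 to 0.71, and those of *ZEB2*, *SNAI1*, *SNAI2* and *SNAI3* include 0.

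The other 5 factors were not detected or nearly so. *TWIST1*, *TWIST2* and *PRRX1* had 0 reads in all 6 libraries, where a count of 0 allows up to 3 reads, or 2.59 to 3.44 normalized counts depending on the library. *FOXC2* had 1 read in control replicate 1 and 1 read in clone 3. *OVOL1*, the factor that opposes EMT, had 1 read in each clone and 0 in each control replicate. Although its groups do not overlap, both are under the floor of 3 reads, and no fold change is given. Any change of these 5 transcripts was not detectable at this depth. The floor of 3 reads covers counting error only, while the limma intervals also hold the spread between libraries.

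Levels were compared between factors per kilobase of the main transcript. In control cells the order was *ZEB1* (342.7 ± 7.66 normalized counts per kb, SD, n = 3), *SNAI2* (44.4 ± 6.02), *SNAI1* (29.2 ± 4.24), *SNAI3* (16.3 ± 2.81) and *ZEB2* (1.98 ± 0.53). No neighbours in this order overlapped between libraries. In KO cells the 3 SNAI factors were no longer separate, with 18.1 to 36.3 for *SNAI2*, 22.0 to 35.3 for *SNAI1* and 15.9 to 26.4 for *SNAI3*. *ZEB1* (517.5 ± 9.93) stayed at the top and *ZEB2* (1.14 ± 0.50) at the bottom of the tested factors. Against other genes *ZEB1* was of middling abundance, above 49.1% of 12489 tested genes in control cells, while *SNAI2* was above 18.2% and *ZEB2* above 0.9%.

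*ZEB1* made up most of the summed level of the 10 factors per kb. Its share was 79.4%, 78.8% and 78.3% in control replicates 1 to 3, against 87.5%, 85.6% and 86.4% in the clones. That of *SNAI2* was 11.3%, 8.90% and 10.4%, against 6.01%, 5.73% and 3.05%. Neither share overlapped between the groups, and nor did that of *ZEB2* (0.324% to 0.537% against 0.114% to 0.282%), whose counts did overlap. Shares are parts of the same sum, so that a rise of *ZEB1* lowers those of the other factors. The lower share of *SNAI2* therefore cannot be taken as a result separate from *ZEB1*. Counts of *SNAI2* itself were also lower in every clone, as given above, and how much each adds to its share was not tested. The transcripts of these factors in PaTu8988t cells were mostly *ZEB1*, and more so in the KO clones.

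**Figure D4:**
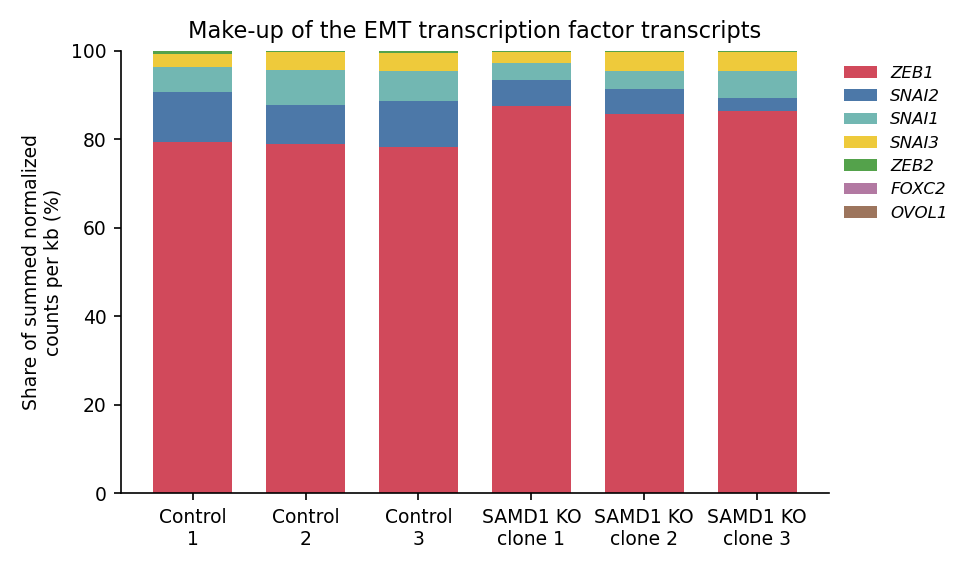
Share (%) of each factor in the summed normalized counts per kb of the 10 EMT transcription factors, 1 bar per library. *ZEB1* holds 78.3% to 79.4% in control and 85.6% to 87.5% in SAMD1 KO cells, and *TWIST1*, *TWIST2* and *PRRX1* (0 reads) are not drawn.

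Genes around these factors were described with 8 lists, which hold 155 genes, 128 of them tested. Of these, 20 were called (13 higher and 7 lower), or 15.6%, beside the 7.85% of all tested genes. The lists were chosen with earlier results of these data known, so that the 2 shares cannot be compared as a test. Other EMT-promoting transcription factors gave 8 of the 20 calls. Each count of called genes below stands beside 5.77% of all tested genes called higher and 2.08% called lower. The lists cover other EMT-promoting transcription factors, factors that keep epithelium, bHLH partners of TWIST, corepressors, regulators of protein stability, the TGF-beta axis, epithelial target genes and mesenchymal genes.

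Of the 15 tested genes among other EMT-promoting transcription factors, 6 were called higher and 2 lower, with a median log2 fold change of 0.34. *SOX4*, an SRY-related factor known from TGF-beta-driven EMT, rose from 270.0 ± 31.5 in control to 1083 ± 218 normalized counts (log2 fold change 1.99, limma adjusted p = 0.000764). *LEF1*, which carries WNT signals to DNA, rose from 597.1 ± 40.6 to 1286 ± 110 (log2 fold change 1.11). *FOXF1* and *RUNX2* also rose, by log2 fold changes of 0.84 and 1.42. *HMGA2* and *MSX2* were called higher too, with 2744, 489.0 and 339.1 normalized counts of *HMGA2* in the clones against 100.7 to 112.3 in control. Leaving out any single control replicate ended both calls, and leaving out clone 1 also ended that of *MSX2*. The log2 fold changes stayed between 1.94 and 3.45 for *HMGA2* and between 0.59 and 0.97 for *MSX2* with a library left out. *ETS1*, a highly expressed factor, fell from 28040 ± 200 to 17310 ± 1925 (log2 fold change −0.70, limma adjusted p = 0.00277), and *MSX1* fell by 0.72 on the log2 scale.

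Of the 16 factors known for keeping cells epithelial, 8 were tested. *GRHL2*, a repressor of *ZEB1* in epithelia, had 1 read in all 6 libraries together, and *ELF5* had none. Of the tested factors 2 were called, both higher: *FOXA1*, a forkhead factor of endoderm, from 260.3 ± 11.9 to 553.5 ± 57.9 normalized counts, and *GRHL1* from 138.9 ± 24.2 to 411.1 ± 89.0 (limma adjusted p = 0.00147 and 0.0041). *OVOL2*, the paralog of *OVOL1*, was present, at 30.5 ± 3.99 and 28.1 ± 13.2, with a log2 fold change of −0.24 (95% confidence interval −1.20 to 0.71). Of the bHLH partners and inhibitors of TWIST, 5 of 9 were tested and 0 called by limma, edgeR or DESeq2 (2 had an unadjusted limma p below 0.05, as did 29.6% of all tested genes). The partner *TCF4* had at most 3 reads in any library.

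Corepressors, through which SNAI and ZEB factors silence genes, were all expressed above the minimum. All 29 were tested, with a median log2 fold change of −0.03, and 1 was called, *RCOR2*, a CoREST subunit that rose from 14.9 to 22.9 normalized counts in control libraries to 38.0 to 52.4 in the clones (limma adjusted p = 0.0247). *KDM1A*, which the N-terminal end of the SNAI factors recruits, had 6440 ± 214 and 6267 ± 374, a log2 fold change of −0.04 (95% confidence interval −0.18 to 0.10). *CTBP1* and *CTBP2*, the partners of ZEB1, had log2 fold changes of 0.07 (−0.14 to 0.28) and −0.36 (−0.73 to 0.01). *CTBP2* differed among the clones, with 2080, 2143 and 3222 against 3079 to 3197 in control. Of the regulators of SNAI, ZEB and TWIST protein stability, 21 of 22 were tested and 0 were called by limma, edgeR or DESeq2. With each tool 6 had an unadjusted p below 0.05, as did 29.6% of all tested genes with limma. *FBXO11*, an E3 ligase subunit that can target SNAI proteins, had a log2 fold change of 0.11 (95% confidence interval −0.07 to 0.28). In the TGF-beta axis 10 of 11 genes were tested. *SMAD4*, the shared mediator of the pathway, had 1 read in all 6 libraries together. *TGFB2* fell from 117.5 ± 11.4 to 31.1 ± 9.93 and *TGFB3* rose from 121.3 ± 13.1 to 201.0 ± 18.3 (limma adjusted p = 0.00394 and 0.0172).

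Of 26 epithelial genes that the factors are known to repress, 21 were tested, 1 was called higher and 3 lower, and the median log2 fold change was −0.09. *CGN*, *PKP2* and *LSR*, which serve tight junctions and desmosomes, fell by 1.74, 0.98 and 0.55 on the log2 scale (limma adjusted p = 0.000376, 0.00098 and 0.00297). *KRT18*, a keratin of simple epithelia, was called higher (limma adjusted p = 0.0598), but the call was lost without any 1 of the control replicates, without clone 1, without clone 2 and with the regional shift removed. *CDH1* was low in both groups, at 38.3 ± 12.4 and 41.5 ± 3.43 normalized counts (log2 fold change 0.17, 95% confidence interval −0.50 to 0.84). *EPCAM*, an epithelial adhesion gene, had 537.3 ± 28.9 and 519.8 ± 102. Of 24 mesenchymal genes 19 were tested, *CDH2* (N-cadherin) and *VCAN* (versican) were called higher, at log2 fold changes of 1.96 and 2.49, *TAGLN* lower at −1.08, and the median was −0.14. *VIM*, which encodes vimentin, was abundant in both groups, with 38990 ± 830 and 53700 ± 12470, and did not pass the rule (log2 fold change 0.44, limma adjusted p = 0.0938). *TAGLN*, which encodes an actin-binding protein, lost its call without any 1 of the control replicates, although its log2 fold change stayed between −1.31 and −0.72 with a library left out.

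**Figure D5:**
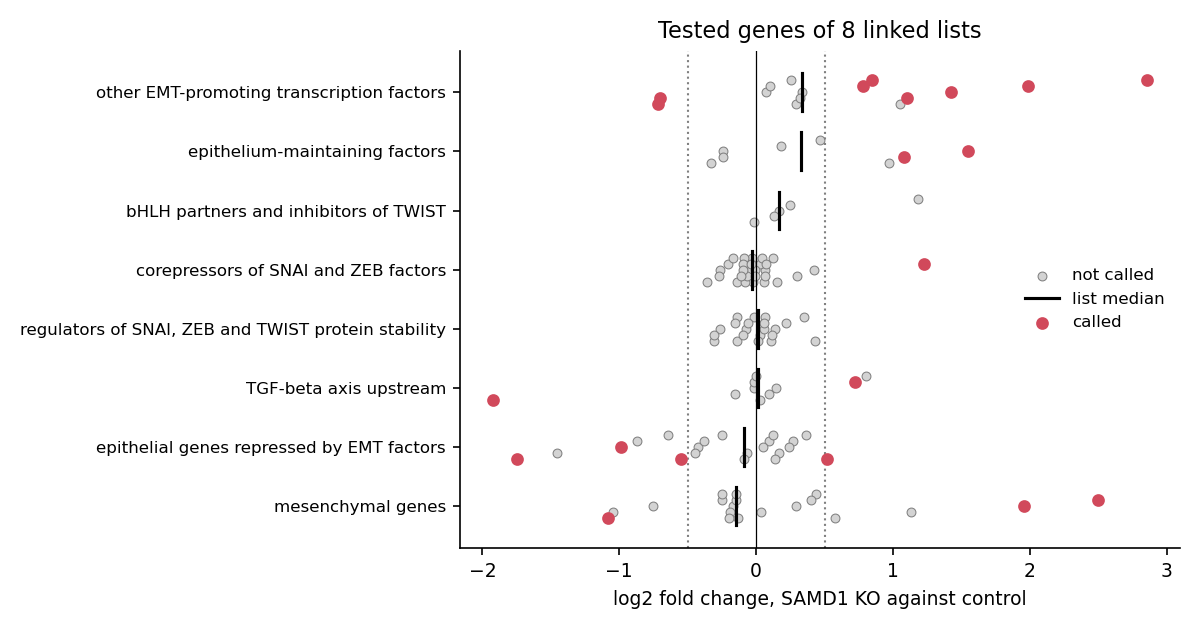
log2 fold change (SAMD1 KO against control, x axis) of the tested genes of 8 lists, with called genes in red, list medians as black bars and dotted lines at −0.5 and 0.5 (points are spread vertically for legibility). Medians run from −0.14 for mesenchymal genes to 0.34 for other EMT-promoting transcription factors, and no gene of the lists of TWIST partners and protein stability was called.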

How the data were processed

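RNA-seq libraries were made from total RNA with a stranded mRNA kit. Alignment by the authors was to GenCode 43 transcripts with RNA-Star, followed by DESeq2 normalization. The submitters' processing notes also name featureCounts and hg38. The strand setting was not given in the sources used here. The deposited signal is this normalized count per gene symbol. All values of a library were whole multiples of its smallest value above 0 (tolerance 0.01 reads), so whole reads were recovered. In SAMD1 KO clone 1 this step is near 1, so that spacing alone could not tell it from rounding, but the values carry decimals. A second deposited table holds the authors' own comparison and was not used.

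Genes with a mean of at least 10 normalized counts (12773 of 20347, of which 3871 had no reads) were compared with limma 3.58.1 (moderated test with a mean-variance trend, two-sided; R 4.3.3) on log2(normalized count + 1), with the call limits of the study's methods and Benjamini-Hochberg adjustment over all tested genes. Fold changes on this scale understate those of low genes. Alternatives were pseudocounts of 0.1 and 10, testing all genes with any read or only those with a mean of at least 50, and 75th percentile rescaling. Others were a replicate block, 1 library left out at a time, and removal of the median shift of 40 neighbouring genes. Count tests on recovered reads (edgeR 4.0.16, DESeq2 1.42.0) and an adjusted p below 0.05 were used too. The members and lists were chosen with earlier results of these data known. Named are all members, SAMD1, up to 4 called genes per list and direction, KDM1A, CTBP1, CTBP2, FBXO11, CDH1, EPCAM, VIM and CDH2, and the closest genes by pattern and position. This rule does not cover *GRHL2*, *ELF5*, *OVOL2*, *TCF4*, *SMAD4*, *SMAD7*, *LLGL2*, *HMGA2*, *MSX2*, *S100A4*, the cell type markers and the 5 called neighbours of *ZEB1*. These were picked with their values known. Positions and lengths are from GENCODE 44 on GRCh38 (98.5% of tested genes). On simulated data (12773 genes, 200 changed 2-fold) limma, edgeR and DESeq2 recovered 197, 195 and 191 changed genes and called 22, 19 and 2 unchanged ones. Recovery with a wider spread between clones than between control replicates, as in these libraries, was not tested. Other steps used Python 3.11.15. One marker gene is not reported here.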

Additional observations from a re-analysis of the deposited data

How the results depend on the processing

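*ZEB1* was the 1 factor called under all 16 alternatives, with a log2 fold change between 0.58 and 0.61. *SNAI2*, *ZEB2* and *SNAI3* kept their direction and were not called under any alternative that tested them, with log2 fold changes from −0.81 to −0.32, −1.08 to −0.47 and 0.30 to 0.67. *SNAI1* ran from −0.333 to 0.00034 with 1 library left out, the sign changing without SAMD1 KO replicate 1. Calls over all genes ran from 751 to 1208, against 1003, and called list members from 16 to 27, against 20. Of the mesenchymal genes, 3 were called by limma and 5 by edgeR and by DESeq2, which added *S100A4* and *COL3A1*. DESeq2 alone also called *LLGL2* (epithelial genes) and *SMAD7* (TGF-beta axis), with limma log2 fold changes of −0.64 and 0.80. The higher share of calls was between 67.4% and 76.9%, against 73.5%. Rescaling by the 75th percentile moved the median of all genes by 0.019 on the log2 scale. The labels do not say whether the replicate numbers mark pairs. Deviations of control and KO libraries with the same number correlated at 0.04, 0.13 and 0.03. Such weak values cannot settle the question, since the spread between clones was far larger than that between control replicates. With the number as a block, 984 genes, 22 list members and 1 factor were called. Reads of *ZEB2* (7 to 19) and *SNAI3* (20 to 52) limit what can be said of them, and a mean of at least 50 leaves *ZEB1* and *SNAI2* alone to be tested.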
